A study of Mus musculus with 17 samples.

Results

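Transforming growth factor beta (TGF-beta), bone morphogenetic proteins (BMPs), growth differentiation factors (GDFs) and activins form 1 family of secreted signals, and their ligands, receptors and Smad proteins were followed here through 17 bulk RNA-seq libraries of mouse brain. Members were all genes of the count table whose symbol begins with Tgfb, Bmp, Acvr, Smad, Inhb or Gdf followed by a number or letter, a rule that uses no measured value. It took 51 of 21640 genes, which were sorted by role into 3 TGF-beta ligands, 18 BMP and GDF ligands, 3 activin and inhibin beta subunits, 7 type I receptors, 4 type II receptors, 2 genes of the type III receptor kind, 6 receptor-regulated and common Smads, 2 inhibitory Smads and 6 other genes that carry a prefix. Those 6 are not signals or receptors of the pathway in the strict sense and are described last.

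A ligand of this family binds a pair of type II receptors, which then phosphorylate a pair of type I receptors. Active type I receptors phosphorylate receptor-regulated Smads, Smad2 and Smad3 for TGF-beta and activins and Smad1, Smad5 and Smad9 for BMPs, and these enter the nucleus with the common Smad, Smad4. In the wall of blood vessels the family is known for promoting the contractile state of smooth muscle and for vessel stability, and in astrocytes for maturation and for the response to injury.

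Arteriolar smooth muscle cells (aSMCs), the muscle of the small arteries, came from mice of 2 genotypes. The 6 Ai47 aSMC libraries were of EGFP-positive cells from SMACreER:Ai47 mice, adults given tamoxifen about a month before the sort, whose cerebral vessels were enriched first and from which cells carrying the endothelial protein CD31 or the immune protein CD45 were removed. The 2 Ai14 aSMC libraries, numbered 7 and 8, were of tdTomato-positive cells of SMACreER:Ai14 mice, and the 3 astrocyte libraries were of tdTomato-positive cells from the cerebral cortex of hGFAPCreER:Ai14 mice. In both reporters, a Cre recombinase that tamoxifen activates marks cells in which the promoter of the smooth muscle actin gene or of human GFAP is or was active, which can include cells other than the type named. The 6 cortex libraries are labelled as a homogenate of wild-type (WT) cerebral cortex. The Ai47 aSMC and cortex groups stood for 6 mice each. For the Ai14 aSMC and astrocyte samples the sources used here give no age of their own. The study's methods say in general that tamoxifen was given to adults a month or more before in vivo work, bulk RNA-seq included. These samples are not named there. Whether their replicates came from separate animals is not given, so p-values that rest on them cover a spread between libraries that could be technical. The comparison with cortex is the study's own for Ai47 aSMCs. The other groups allow the same question of a second aSMC preparation and of another sorted cell type.

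Library totals were 41499087 to 53643624 counts in Ai47 aSMCs, 14870507 and 14979228 in Ai14 aSMCs, 5397905 to 7288036 in cortex and 4537137 to 7390630 in astrocytes. Mitochondrial genes took 0.214% to 0.559%, 16.8% to 17.6%, 35.7% to 72.9% and 10.7% to 12.5% of them. All 6 smooth muscle markers were higher in both aSMC groups than in cortex. Of 6 pericyte markers, 4 were higher than in cortex in each aSMC group, and 1 was lower in Ai47 aSMCs and 0 in Ai14 aSMCs. The summed level of these markers was 2996 to 6051 CPM (counts scaled to library size) in Ai47 aSMCs, 7333 and 10433 in Ai14 aSMCs, 263 to 745 in cortex and 12.3 to 17.6 in astrocytes. Their part in the aSMC results was not tested. In the astrocyte libraries the summed level of 6 astrocyte markers was 927 to 1558 CPM, below the 3203 to 17385 CPM of cortex, which Slc1a2 led at 9206 CPM. Of the 6, 1 was higher and 1 lower in astrocytes than in cortex by the test. The sum was 910 to 1409 CPM in Ai47 aSMCs, nearly all of it Gja1 at 1093 CPM beside 0.0569 CPM of Gfap, and 148 and 230 CPM in Ai14 aSMCs. The 6 Ai47 columns hold counts closer to each other than separate libraries usually do for some genes: 70 of 7220 genes with a mean of at least 100 counts had their highest count within 5% of their lowest over all 6, against 0 of 3967 in the 6 cortex columns. The member Bmp4 held 1840 or 1841 counts in 5 of the 6 columns and 2086 in the first. By a chi-square test over genes, no pair of libraries within any group agreed within sampling noise. At this depth the test finds small differences in every pair, so it cannot tell whether the Ai47 columns are separate libraries. Calls of members that rest on the Ai47 group were therefore also tested with its columns taken as 1 library, and the outcome is given with the counts of called members. In bulk samples such as these, fewer cells of a type and less RNA per cell cannot be told apart.

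Levels are CPM after TMM scaling, a per-library factor that sets most genes level between libraries. Levels of different genes are compared only per kb of exon. A member was called where edgeR's quasi-likelihood test on all 17 libraries gave a p under 0.05 after Benjamini-Hochberg adjustment over 14927 genes. Errors of log2 fold changes are approximate standard errors (SE), worked back from the test: the absolute log2 fold change divided by the square root of the F statistic. Of the 51 members, 40 passed the filter on low counts. The 11 that did not were Bmp8a, Bmp8b, Bmp10, Bmp15, Gdf1, Gdf3, Gdf5, Gdf6, Gdf9 and Gdf15 and the type III receptor relative Tgfbr3l. Bmp8a had no counts in any library, and the highest group mean of the others was 2.65 CPM, for Gdf5 in astrocytes.

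The family was spread unevenly over the groups. Its summed level was 4457 ± 621 CPM in Ai47 aSMCs (SD, n = 6), 1962 ± 52.5 in Ai14 aSMCs (n = 2), 931 ± 117 in cortex (n = 6) and 843 ± 187 in astrocytes (n = 3). This order rests on the TMM scaling, whose factors were 0.423 to 0.551 in Ai47 aSMCs and 2.21 in both Ai14 libraries. As a share of library totals the members took 0.196% to 0.225% in Ai47 aSMCs, 0.425% and 0.440% in Ai14 aSMCs, 0.0648% to 0.153% in cortex and 0.148% to 0.249% in astrocytes, which puts Ai14 aSMCs first and lets astrocytes and Ai47 aSMCs overlap. Members with a mean of at least 100 CPM numbered 6 in each aSMC group and 1 in cortex and in astrocytes. At the other end, 6 members had no counts in Ai47 aSMCs, 4 in Ai14 aSMCs, 5 in cortex and 10 in astrocytes. A count of 0 allows up to 0.0213, 0.0456, 0.0689 and 0.0782 CPM over these groups, limits that cover counting error only.

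Per kb, the highest members in Ai47 aSMCs were Gdf11 at 290, Tgfb3 at 115, Bmpr2 at 85.5 and Bmp2k at 59.0 CPM per kb. Ai14 aSMCs were led by Tgfb3 at 58.6, Bmpr1a at 47.8, Tgfb1i1 at 41.2, Tgfb2 at 25.1 and Bmpr2 at 24.6 CPM per kb. The highest in cortex were Bmpr2 at 21.4, Tgfbr1 at 14.6 and Bmpr1a at 13.8, and in astrocytes Smad5 at 30.9, Bmpr1a at 12.2, Tgfbr2 at 11.2, Smad4 at 10.7 and Bmp6 at 10.4 CPM per kb. A ligand thus stood first in both aSMC groups, a receptor in cortex and a Smad in astrocytes.

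**Figure D1:**
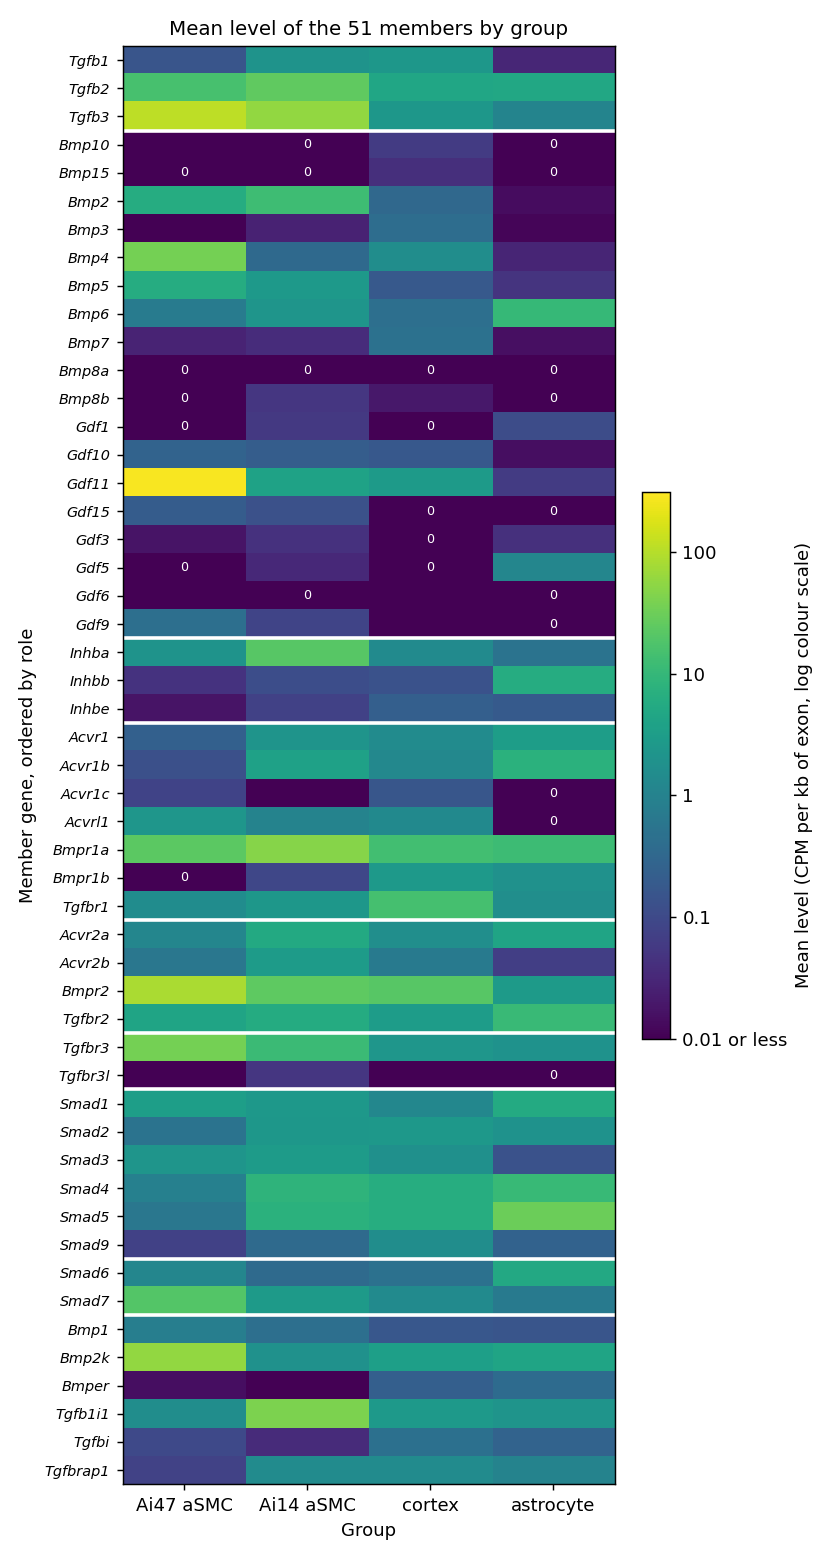
Mean level of each of the 51 members (rows, ordered by role, with white lines between roles) in the 4 groups (columns), in CPM per kb of exon on a log colour scale, where 0 marks no counts in the group. The brightest cells are Gdf11 at 290 and Tgfb3 at 115 CPM per kb in Ai47 aSMCs, and Tgfb3 at 58.6 in Ai14 aSMCs.

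Called members numbered 22 of 40 between Ai47 aSMCs and cortex, 10 higher and 12 lower in Ai47 aSMCs, or 55.0% beside 50.6% of all genes tested (24.1% higher and 26.5% lower). With library totals in place of TMM the split was 6 higher and 17 lower, and with the 6 Ai47 columns as 1 library 5 higher and 1 lower. The 6 calls kept in that fit were Gdf11, Tgfb3, Bmpr2, Tgfbr3, Bmp2k and Bmpr1b, and the other 16 of the 22 were lost, with adjusted p of 0.0590 to 0.610. Between Ai14 aSMCs and cortex 5 of 40 were called, all higher in Ai14 aSMCs, or 12.5% beside 5.97% of all genes, of which 3.97% were higher and the other 298 genes lower. The 0 lower members were 2 at an unadjusted p under 0.05 and 4 called by DESeq2. Without Ai14 replicate 7 or 8 no member was called, with 6 and 7 higher and 0 lower at an unadjusted edgeR p under 0.05, and without cortex replicate 1 the count was 3. Between astrocytes and cortex 6 were higher and 9 lower in astrocytes, 37.5% beside 34.5% (14.6% and 19.8% of all genes). Without cortex replicate 1, 2 or 6 or astrocyte replicate 2 the higher members numbered 3. The members' shares were near the background in the Ai47 aSMC and astrocyte comparisons. Median log2 fold changes of the 40 members were 0.09, 0.35 and -0.51 in these comparisons, beside -0.16, 0.32 and -0.08 over all genes.

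The 3 TGF-beta ligands are the founding members of the family, secreted in a latent form that must be released to act. Tgfb3 and Tgfb2 were higher in both aSMC groups than in cortex, and Tgfb1 was lower in Ai47 aSMCs and in astrocytes. Tgfb3 (ENSMUSG00000021253.7, chromosome 12, GRCm38) lay at 257, 285, 631, 277, 349 and 533 CPM in Ai47 aSMC replicates 1 to 6. It lay at 148 and 249 CPM in Ai14 aSMCs, at 5.02, 4.86, 1.87, 6.72, 3.87 and 27.0 in cortex and at 0, 0.127 and 10.9 in astrocytes. Every aSMC library was above every cortex and astrocyte library, and cortex replicate 6 stood apart from the other 5. The log2 fold change against cortex was 5.57 ± 0.975 in Ai47 aSMCs (edgeR adjusted p = 8.35e-05) and 4.59 ± 1.05 in Ai14 aSMCs (adjusted p = 0.00976). The Ai47 call was kept in all 24 alternatives, and the Ai14 call was lost without either Ai14 library (adjusted p = 0.0633 and 0.183), with cortex replicates 4 to 6 alone (0.149) and with the Ai47 columns as 1 library (0.0536).

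Tgfb2, on chromosome 1, lay at 37.5, 36.7, 176, 104, 87.9 and 93.6 CPM in Ai47 aSMCs and at 140 and 151 in Ai14 aSMCs. In cortex it lay at 27.8, 24.3, 40.7, 11.1, 27.6 and 27.0 CPM, and in astrocytes at 21.7, 45.7 and 17.7. The 2 Ai14 libraries were above all cortex libraries, and Ai47 replicates 1 and 2 were within the cortex range. It was higher than in cortex by 1.76 ± 0.479 on the log2 scale in Ai47 aSMCs (adjusted p = 0.00458) and by 2.46 ± 0.60 in Ai14 aSMCs (adjusted p = 0.0161). The second of these calls was kept in 8 of 19 alternatives, and its losses include those without either Ai14 library and without any one of cortex replicates 1, 2, 4, 5 and 6. Library totals and the 6 Ai47 columns as 1 library ended the Ai47 call.

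Tgfb1, the isoform that microglia and other immune cells also make, ran the other way. It lay at 0.472, 0.513, 0.284, 2.84, 0.162 and 0.40 CPM in Ai47 aSMCs, at 9.95 and 10.3 in Ai14 aSMCs and at 0, 0 and 0.455 in astrocytes. Cortex replicates 1 to 3 held 2.74, 2.63 and 3.74 CPM and replicates 4 to 6 held 23.3, 14.5 and 25.3. Against cortex it was lower by a log2 fold change of -3.93 ± 1.04 in Ai47 aSMCs (adjusted p = 0.00369) and of -6.07 ± 1.60 in astrocytes (adjusted p = 0.00691). With cortex replicates 1 to 3 alone the values were -1.66 (adjusted p = 0.254) and -4.23 (adjusted p = 0.0576), and neither was called. With replicates 4 to 6 alone both calls were kept. Either fit holds fewer cortex libraries, which by itself makes a call harder to reach. The summed level of the 6 microglia and macrophage markers was 130, 134, 109, 1065, 813 and 635 CPM in cortex replicates 1 to 6, against 0.364 to 38.4 in Ai47 aSMCs, 10.7 and 25.7 in Ai14 aSMCs and 1.97 to 2.54 in astrocytes. Cortex replicates 4 to 6 also had mitochondrial shares of 67.7% to 72.9%, against 35.7% to 59.0% in replicates 1 to 3. Genes with counts numbered 12164 to 13042 in replicates 4 to 6 and 13602 to 15941 in replicates 1 to 3. The part of the markers, of the mitochondrial share or of the genes with counts in the Tgfb1 result was not tested.

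The mix of the isoforms differed between groups. Of the TGF-beta ligand level per kb, Tgfb3 made up 88.4% in Ai47 aSMCs (range over libraries 81.5% to 92.9%) and 67.4% in Ai14 aSMCs (62.6% to 72.3%), against 22.2% in cortex (6.65% to 45.2%) and 17% in astrocytes, where replicate 3 was at 50.5% and the other libraries at 0 and 0.473%. Tgfb2 made up 11.5%, 30.1%, 54.3% and 82.6% in the same order of groups. Tgfb1 reached 23.4% in cortex (7.95% to 54.3%) and 2.42% or less in the sorted groups.

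**Figure D2:**
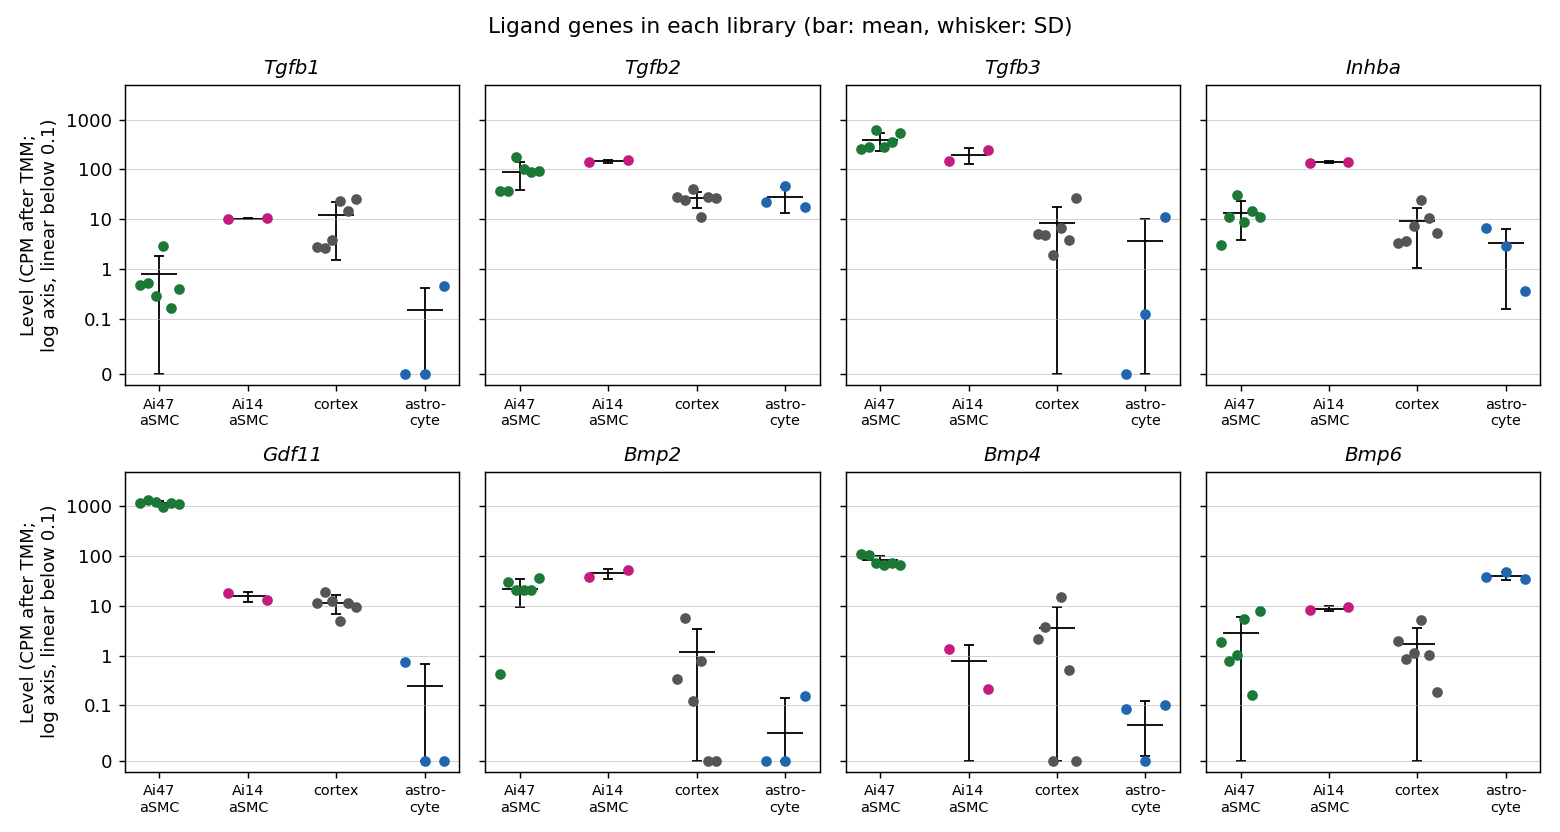
Level of 8 ligand genes in every library (points, CPM after TMM on a log axis that is linear below 0.1), by group, with the mean (bar) and SD (whisker, ending at 0 where it would pass below). Tgfb3 and Tgfb2 were highest in aSMCs of both genotypes, Gdf11 and Bmp4 stood high in Ai47 aSMCs alone, Inhba in Ai14 aSMCs and Bmp6 in astrocytes.

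Among the BMP and GDF ligands, Gdf11 stood out. GDF11 is a circulating factor close to myostatin that signals through activin receptors and Smad2 and Smad3. The gene (ENSMUSG00000025352.6, chromosome 10, GRCm38) lay at 1176, 1367, 1248, 991, 1183 and 1116 CPM in Ai47 aSMCs. It lay at 18.2 and 13.2 CPM in Ai14 aSMCs, at 11.6, 19.3, 12.7, 4.94, 11.6 and 9.45 in cortex and at 0.749, 0 and 0 in astrocytes. The Ai47 libraries formed a tight set far above all others, whereas the Ai14 libraries were within the cortex range. Ai47 aSMCs exceeded cortex by 6.66 ± 0.657 on the log2 scale (adjusted p = 6.85e-08) and exceeded Ai14 aSMCs by 6.23 ± 1.07 (adjusted p = 0.000300), and astrocytes were below cortex (-5.56 ± 0.907, adjusted p = 0.000159). These 3 calls were kept in every alternative run, the 6 Ai47 columns as 1 library included. The gap between Ai47 and Ai14 aSMCs is a gap between 2 preparations of the same labelled cell type. The summed level of 6 fibroblast markers was also highest in Ai47 aSMCs, but the markers did not move as a set. The sum was 1544 to 2369 CPM in Ai47 aSMCs, 110 and 152 in Ai14 aSMCs, 15.7 to 42.2 in cortex and 1.06 to 7.87 in astrocytes. Col1a1 made up 1739 CPM of the Ai47 sum, Pdgfra had no counts there, and 1 of the 5 markers tested was higher in Ai47 than in Ai14 aSMCs and 1 lower. Their part in the Gdf11 result was not tested.

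The promoter sequences of 3 ligand genes that were high in an aSMC group are shown, as the 250 bases before the RefSeq start on GRCm38.p6, read 5' to 3' on the gene's strand. Capitals mark CAGAC, the core of the Smad-binding element, and TATAAA, the letters of a TATA box, wherever they lie. They are Tgfb2 (chr1:186705990-186706239, minus strand), Gdf11 (chr10:128891719-128891968, minus strand) and Inhba (chr13:16011601-16011850, plus strand).
Tgfb2: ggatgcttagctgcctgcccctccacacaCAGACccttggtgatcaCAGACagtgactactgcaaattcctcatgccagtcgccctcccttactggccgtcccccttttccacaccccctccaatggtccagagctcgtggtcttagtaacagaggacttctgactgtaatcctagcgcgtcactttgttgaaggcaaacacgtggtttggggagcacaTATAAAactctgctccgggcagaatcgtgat
Gdf11: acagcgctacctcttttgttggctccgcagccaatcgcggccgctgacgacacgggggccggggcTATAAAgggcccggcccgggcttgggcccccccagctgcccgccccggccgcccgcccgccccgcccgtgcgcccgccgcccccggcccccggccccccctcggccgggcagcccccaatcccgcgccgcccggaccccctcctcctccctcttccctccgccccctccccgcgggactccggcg
Inhba: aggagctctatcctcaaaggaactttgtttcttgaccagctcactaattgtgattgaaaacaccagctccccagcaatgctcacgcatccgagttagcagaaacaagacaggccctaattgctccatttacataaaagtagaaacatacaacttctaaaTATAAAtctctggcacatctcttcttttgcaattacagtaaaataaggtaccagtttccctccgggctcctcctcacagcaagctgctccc
The Tgfb2 promoter held CAGAC at 2 places, starting 221 and 204 bases before the start, and TATAAA 31 bases before it. Gdf11 had TATAAA 185 bases and Inhba 91 bases before the start, and neither held CAGAC on either strand. The Gdf11 stretch was 81.2% G and C, and that of Inhba 43.2%. Of 45 promoters that RefSeq gives for 36 of the members, 20 held CAGAC on either strand and 4 held TATAAA on the gene's strand, beside 42.2% and 7.59% of all 32851 promoters in the table. A match of letters is a description and not a binding site. For Tgfb3 and Bmp2 there was no entry, and Bmp4 and Bmp5, also called higher in Ai47 aSMCs than in cortex, are not shown. The 3 promoters are examples and do not stand for the ligands high in aSMCs.

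Bmp2 and Bmp4 are close relatives that act through Smad1, Smad5 and Smad9. Bmp4 was called between the aSMC groups and Bmp2 was not. Bmp4 lay at 109, 105, 74.7, 67.8, 74.4 and 67.0 CPM in Ai47 aSMCs, at 1.37 and 0.212 in Ai14 aSMCs, at 2.17, 3.74, 0, 15.0, 0.517 and 0 in cortex and at 0.0936, 0 and 0.101 in astrocytes. All Ai47 libraries were above the rest, and the Ai14 libraries lay within the cortex range. As given above, Ai47 replicates 2 to 6 held 1840 or 1841 counts each, so their CPM differ almost only by library size and scaling factor. The SE and p that follow rest on these values. Bmp4 was higher in Ai47 aSMCs than in cortex by 4.54 ± 1.04 (log2, adjusted p = 0.00111) and than in Ai14 aSMCs by 6.70 ± 1.91 (adjusted p = 0.0136). Neither call was kept with the Ai47 columns as 1 library, and the second was also lost without either Ai14 library and with library totals (4.48, adjusted p = 0.0573).

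Bmp2 lay at 0.419, 30.9, 21.3, 21.4, 21.1 and 36.3 CPM in Ai47 aSMCs and at 37.5 and 53.0 in Ai14 aSMCs. In cortex it lay at 0.342, 5.73, 0.125, 0.791, 0 and 0 CPM, and in astrocytes at 0, 0 and 0.152. Ai47 replicate 1 lay within the cortex range, and every other aSMC library was above it. It was higher than in cortex in both aSMC groups, by 4.15 ± 1.15 (log2, adjusted p = 0.00513) and 5.20 ± 1.34 (adjusted p = 0.0227). The Ai47 call was lost with library totals (2.40, adjusted p = 0.0941) and with the Ai47 columns as 1 library (adjusted p = 0.0716). The Ai14 call was lost without Ai14 replicate 7 or 8 (adjusted p = 0.0962 and 0.172), without cortex replicate 1 (0.0550) and with cortex replicates 1 to 3 alone (0.162).

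Bmp5 was called higher in Ai47 aSMCs than in cortex (5.01 ± 1.51, adjusted p = 0.00903), but 1 library decides it: Ai47 replicate 1 held 117 CPM and the other 5 held 0 to 13.2. Without that library the value was 3.27 (adjusted p = 0.0559), and library totals (0.0518), the Ai47 columns as 1 library (0.0613) and cortex replicates 1 to 3 alone (0.0797) also ended the call. So did a block for replicate number (edgeR adjusted p = 0.0574). Exons of Bmp5 share 46.7% of their bases with a gene model on the other strand. Bmp6, an iron-regulating BMP of endothelial cells in the liver, was the highest ligand gene per kb in the astrocyte libraries. It reached 10.4 CPM per kb on average, beside 6.09 for Inhbb and 4.90 for Tgfb2. Bmp6 lay at 38.1, 49.2 and 34.7 CPM in these libraries. Its cortex libraries lay at 0.189 to 5.34 CPM, its Ai47 aSMC libraries at 0.162 to 7.97 and its Ai14 aSMC libraries at 8.19 and 9.49, so astrocytes did not overlap with any other group. Bmp6 was higher in astrocytes than in cortex by 4.54 ± 1.02 (adjusted p = 0.00223) in every alternative run.

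Bmp3, which opposes other BMPs, and Bmp7 were lower than in cortex in both the Ai47 aSMC and the astrocyte libraries. Bmp3 lay at 1.03 to 5.42 CPM in cortex, and Ai47 aSMCs held 4 counts in all (log2 fold change -6.41 ± 1.24, adjusted p = 0.000237) and astrocytes 2. Cortex exceeded astrocytes 57.7-fold in Bmp3, with an exact 95% interval of 15.6 to 481. Bmp7 was at 1.92 ± 2.22 CPM in cortex (SD, n = 6), 0.113 ± 0.0237 in Ai47 aSMCs (n = 6; log2 fold change -4.01, adjusted p = 0.00589) and 2 counts in astrocytes (50.2-fold, interval 13.6 to 419). Bmp4 was also lower in astrocytes than in cortex, by 42.3-fold with an interval of 14.2 to 207 from 3 counts. These intervals and those given below pool the counts of a group. They cover counting error only and not the spread between libraries. The astrocyte call of Bmp3 was lost without astrocyte replicate 1, and that of Bmp7 without cortex replicate 2 or astrocyte replicate 2 or 3. With cortex replicates 4 to 6 alone both calls of Bmp7 were lost (adjusted p = 0.0547 and 0.0930), and with only the 2 groups fitted the astrocyte call of Bmp4 (0.0805). A block for replicate number also ended the astrocyte calls of Bmp3 and Bmp4 (edgeR adjusted p = 0.0647 and 0.0812). Gdf10 did not pass in the comparisons with cortex. In all, 4 of the 8 BMP and GDF ligands tested were higher and 2 lower in Ai47 aSMCs than in cortex, 1 was higher in Ai14 aSMCs, and 1 was higher and 4 lower in astrocytes. All genes were at 24.1% and 26.5%, 3.97% for higher in Ai14 aSMCs, and 14.6% and 19.8%.

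Of the activin and inhibin beta subunits, which pair to form activins, Inhba was high in Ai14 aSMCs. It lay there at 135 and 143 CPM, against 3.09, 11.3, 30.9, 8.81, 14.9 and 11 in Ai47 aSMCs, 3.31, 3.58, 7.24, 24.5, 10.3 and 5.29 in cortex and 6.55, 2.92 and 0.354 in astrocytes. The 2 Ai14 libraries were above all others, and the Ai47 and cortex libraries overlapped. Ai14 aSMCs exceeded cortex by 3.95 ± 0.877 (log2, adjusted p = 0.00802), and Ai47 aSMCs were below Ai14 aSMCs by -3.39 ± 0.870 (adjusted p = 0.00718). Both calls were lost without either Ai14 library, and the first with cortex replicates 4 to 6 alone.

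Inhbb was called higher in astrocytes than in cortex (5.42 ± 1.47, adjusted p = 0.00822), with 67.3, 0 and 10.4 CPM in the 3 astrocyte libraries. Cortex lay at 0 to 1.62 CPM. The astrocyte libraries overlapped with cortex, since replicate 2 had no counts, and without replicate 1 the value was 3.05 (adjusted p = 0.128). Cortex replicates 1 to 3 alone gave an adjusted p of 0.0894, and a block for replicate number gave 0.185. Inhbe was at or below 1.25 CPM on average in every group.

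Type I receptors decide which Smads a signal reaches, and in Ai47 aSMCs 4 of the 7 were lower than in cortex and none higher, beside 26.5% and 24.1% of all genes. With the Ai47 columns as 1 library only Bmpr1b of these 4 was called. Bmpr1b, a BMP receptor, had no counts in any Ai47 library, 0.487 and 0.576 CPM in Ai14 aSMCs, 28.7, 30.5, 10.4, 6.33, 8.52 and 10.8 in cortex and 27.7, 0 and 6.06 in astrocytes. Cortex was at least 744-fold higher than Ai47 aSMCs, a bound from 3 counts over the group (adjusted p = 2.56e-05), and the call was kept in every alternative. The other BMP receptor of this type, Bmpr1a, was the highest type I receptor per kb in all groups but cortex, where Tgfbr1 led. Bmpr1a lay at 221, 239, 139, 103, 69.3 and 126 CPM in Ai47 aSMCs, at 303 and 304 in Ai14 aSMCs, at 89.5, 111, 82.9, 63.9, 62.0 and 115 in cortex and at 33.6, 67.7 and 131 in astrocytes. The Ai14 libraries were above the rest, with a log2 fold change against cortex of 1.80 ± 0.535 that missed the threshold (adjusted p = 0.0502), and the Ai47 libraries overlapped with cortex (0.78, adjusted p = 0.123).

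Tgfbr1, the TGF-beta receptor of this type, lay at 2.36, 36.4, 0.730, 2.28, 0.768 and 18.3 CPM in Ai47 aSMCs, at 19.0 and 12.8 in Ai14 aSMCs and at 14.1, 0 and 19.3 in astrocytes. Cortex replicates 1 to 3 held 28.7, 42.7 and 24.7 CPM and replicates 4 to 6 held 186, 157 and 134. The same split of libraries was given above for Tgfb1, for the microglia and macrophage markers, for mitochondrial share and for genes with counts. The gene was lower in Ai47 aSMCs than in cortex (-3.24 ± 1.07, adjusted p = 0.0156). With cortex replicates 1 to 3 alone the value was -1.37 (adjusted p = 0.416). The part of the markers, of the mitochondrial share or of the genes with counts in the Tgfbr1 result was not tested.

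**Figure D3:**
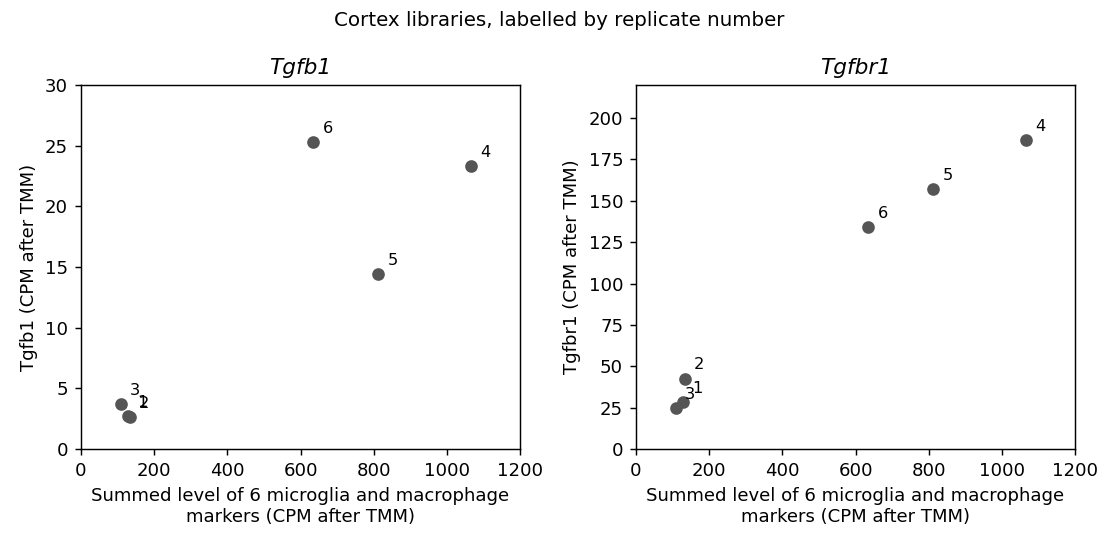
Tgfb1 (left) and Tgfbr1 (right) in the 6 cortex libraries, in CPM after TMM, against the summed level of 6 microglia and macrophage markers, each point 1 library with its replicate number. Replicates 4 to 6, with marker sums of 635 to 1065 CPM, held 14.5 to 25.3 CPM of Tgfb1 and 134 to 186 of Tgfbr1, above replicates 1 to 3 in both genes. Replicates 4 to 6 also had higher mitochondrial shares and fewer genes with counts than replicates 1 to 3.

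Acvr1b, a type I receptor which carries activin and GDF11 signals, lay at 0.184 to 0.946 CPM in Ai47 aSMCs (median 0.567), at 16.6 and 16.5 in Ai14 aSMCs, at 2.97 to 9.48 in cortex (median 5.23) and at 41.5, 34.9 and 24.3 in astrocytes. No 2 of these groups overlapped. It was lower in Ai47 aSMCs than in cortex (-3.31 ± 0.653, adjusted p = 0.000289) and than in Ai14 aSMCs (-4.88 ± 0.779, adjusted p = 0.000147), and higher in astrocytes than in cortex (2.59 ± 0.701, adjusted p = 0.00809). The first and second calls were lost with the Ai47 columns as 1 library (adjusted p = 0.160 and 0.184), and the third with cortex replicates 1 to 3 alone (0.0827). The astrocyte call of Acvr1b was lost with a block for replicate number as well (edgeR adjusted p = 0.109). Acvr1, a BMP type I receptor despite its name, was also lower in Ai47 aSMCs than in cortex (-2.61 ± 0.855, adjusted p = 0.0152), a call that cortex replicates 1 to 3 alone did not give (-2.16, adjusted p = 0.10). Acvrl1, best known from endothelial cells, had no counts in the 3 astrocyte libraries and 2.37 to 12.2 CPM in cortex, which was at least 75.2-fold higher (adjusted p = 0.000531). Of the 6 endothelial markers, 5 were lower and 1 higher in astrocytes than in cortex, and their summed level was 513 to 1256 CPM in astrocytes and 290 to 1050 in cortex. Their part in the Acvrl1 result was not tested. Acvr1c, at 1.48 CPM on average in cortex, had no counts in astrocytes either (at least 18.9-fold, adjusted p = 0.0311), and this call was lost without any one of the astrocyte libraries.

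Type II receptors bind the ligand first. Bmpr2, the BMP receptor whose loss is known from pulmonary arterial hypertension, was the highest of the 4 per kb in both aSMC groups and in cortex. Its gene (ENSMUSG00000067336.6, chromosome 1, GRCm38) lay at 2015, 2173, 1211, 1174, 1565 and 1085 CPM in Ai47 aSMCs and at 453 and 430 in Ai14 aSMCs. It lay at 323, 334, 557, 280, 404 and 417 CPM in cortex and at 45.8, 46.8 and 60.4 in astrocytes. The Ai47 libraries were above and the astrocyte libraries below all others, and the Ai14 libraries lay among those of cortex. Against cortex it was higher in Ai47 aSMCs by 1.99 ± 0.316 (log2, adjusted p = 2.78e-05) and lower in astrocytes (-2.92 ± 0.436, adjusted p = 7.42e-05). With library totals in place of TMM the Ai47 call was lost, and the gap between Ai47 and Ai14 aSMCs, 1.80 ± 0.484 (adjusted p = 0.00956), turned to -0.44. Tgfbr2, the TGF-beta receptor of this type, was higher in astrocytes than in cortex (1.86 ± 0.607, adjusted p = 0.0231), with 47.9, 202 and 25.3 CPM against 11.2 to 54.8. Those ranges overlap, and the call was kept in 10 of 21 alternatives, with a loss without any one of cortex replicates 1, 2, 3, 5 and 6 and astrocyte replicate 2. Acvr2a and Acvr2b did not pass against cortex in any of the 3 groups.

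Tgfbr3 encodes betaglycan, a co-receptor that presents TGF-beta2 and inhibins to the signalling receptors. It lay at 313, 218, 215, 200, 278 and 207 CPM in Ai47 aSMCs, at 91.8 and 61.3 in Ai14 aSMCs, at 10.3, 7.24, 35.4, 12.5, 7.49 and 18.9 in cortex and at 5.71, 0.127 and 32.3 in astrocytes. The order was Ai47 aSMCs, Ai14 aSMCs and then cortex and astrocytes, and the last 2 overlapped. The log2 fold change of Ai47 aSMCs against cortex was 3.96 ± 0.741 (adjusted p = 0.000167) and was called in every alternative. The Ai14 libraries, although above all cortex libraries, did not pass.

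**Figure D4:**
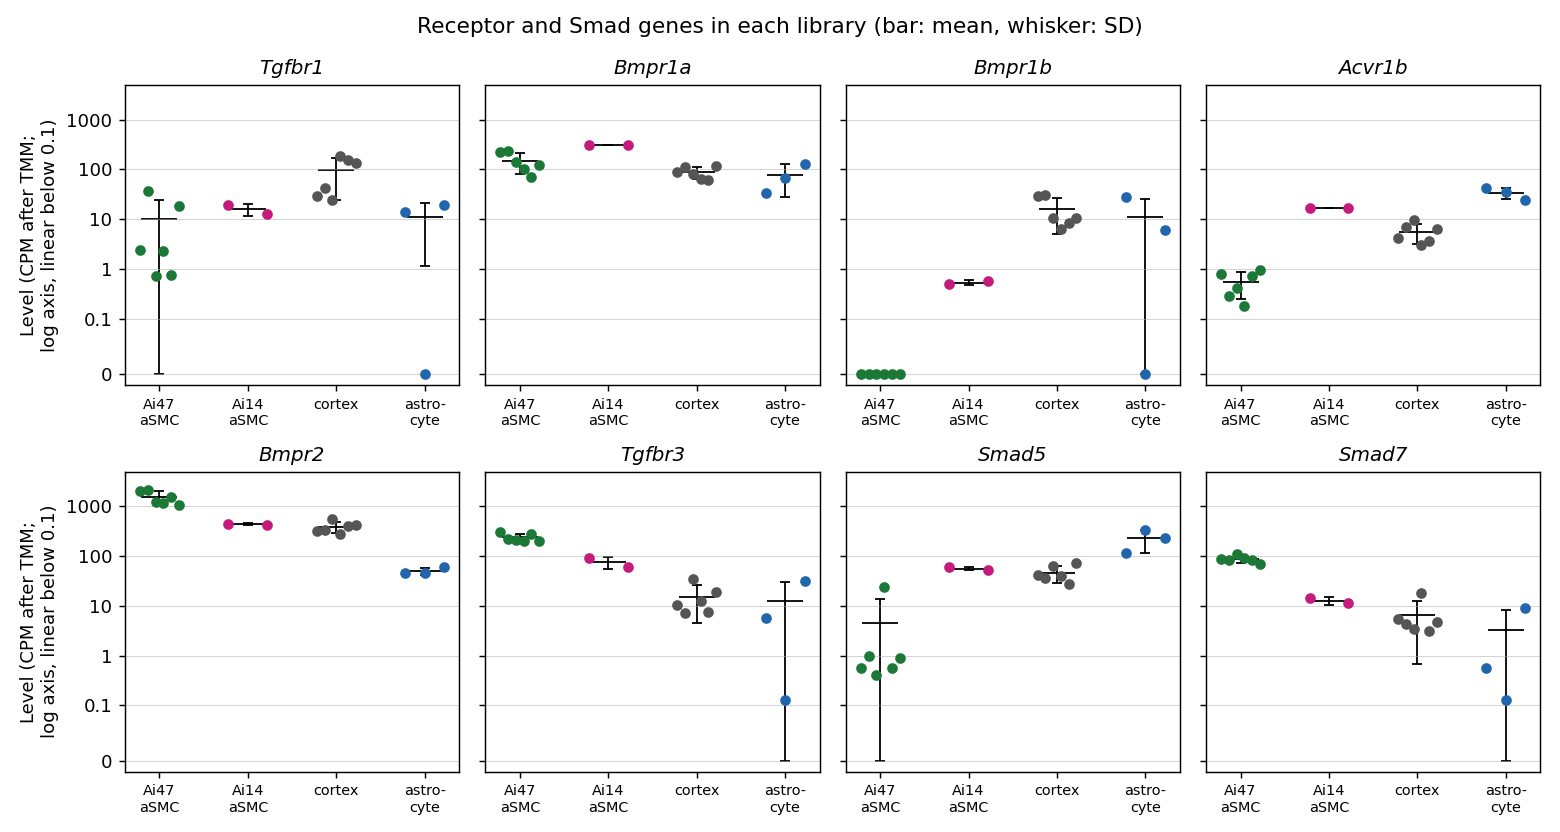
Level of 6 receptor genes and 2 Smad genes in every library (points, CPM after TMM on a log axis that is linear below 0.1), by group, with the mean (bar) and SD (whisker, ending at 0 where it would pass below). Bmpr2, Tgfbr3 and Smad7 were highest in Ai47 aSMCs, Acvr1b and Smad5 in astrocytes, and Bmpr1b had no counts in the 6 Ai47 aSMC libraries.

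The receptor-regulated and common Smads, which carry the signal to the nucleus, were lowest in Ai47 aSMCs and highest in astrocytes by summed level: 46.6 ± 25.8 CPM in Ai47 aSMCs (SD, n = 6), 143 ± 14.6 in Ai14 aSMCs (n = 2), 118 ± 31.4 in cortex (n = 6) and 324 ± 97.4 in astrocytes (n = 3). The Ai47 range of 11 to 91.0 CPM did not reach the cortex range of 98.7 to 181. Smad5, which serves BMPs, lay at 0.576, 0.969, 0.406, 23.8, 0.566 and 0.910 CPM in Ai47 aSMCs, at 59.6 and 53.5 in Ai14 aSMCs, at 42.6, 35.7, 63.4, 39.2, 27.1 and 72.0 in cortex and at 117, 341 and 230 in astrocytes. Ai47 replicate 4 was apart from the other 5 but still below cortex, and astrocytes were above every other library. Smad5 was lower in Ai47 aSMCs than in cortex by a log2 fold change of -3.36 ± 0.900 (adjusted p = 0.00403), or -5.89 without replicate 4, and the astrocyte difference did not pass.

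Smad9, the least abundant BMP Smad per kb in both aSMC groups, lay at 0.472, 0.513, 0.527, 0.295, 0.283 and 0.291 CPM in Ai47 aSMCs and at 2.71 and 1.12 in Ai14 aSMCs. In cortex it lay at 2.74, 3.10, 2.37, 0.593, 25.8 and 17.6 CPM, and in astrocytes at 0, 0 and 4.14. It was lower in Ai47 aSMCs than in cortex (-4.43 ± 1.23, adjusted p = 0.00531), but not with cortex replicates 1 to 3 alone (-2.43, adjusted p = 0.127). Smad4, the common Smad, was lower as well (-2.80 ± 0.796, adjusted p = 0.00616), with 0.243 to 10.9 CPM against 15.2 to 33.0 in cortex, and with cortex replicates 1 to 3 alone its value was -2.38 (adjusted p = 0.0600). In astrocytes Smad1 was higher than in cortex (2.26 ± 0.759, adjusted p = 0.0268) and Smad3 lower (-3.71 ± 1.4, adjusted p = 0.0445), each in 11 of 21 alternatives. Either call was lost without astrocyte replicate 1 or 2 and without cortex replicate 6, that of Smad1 also without any one of cortex replicates 1 to 4 and that of Smad3 without cortex replicate 5. Smad2, at 21.8 ± 14.8 CPM in cortex (SD, n = 6) and 4.49 ± 8.67 in Ai47 aSMCs (n = 6), did not pass against cortex in any group.

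The inhibitory Smads switch the pathway off and are themselves induced by it. Smad7 lay at 88.7, 85.6, 113, 92.8, 83.8 and 68.6 CPM in Ai47 aSMCs, at 14.2 and 11.2 in Ai14 aSMCs, at 5.36, 4.38, 3.37, 18.4, 3.10 and 4.73 in cortex and at 0.562, 0.127 and 8.94 in astrocytes. The Ai47 libraries were above all others, and cortex replicate 4 was apart from the remaining 5. Smad7 was higher in Ai47 aSMCs than in cortex by 3.76 ± 0.758 (log2, adjusted p = 0.000355), a call lost only with the Ai47 columns as 1 library. Smad6 was called higher in astrocytes than in cortex (3.43 ± 1.31, adjusted p = 0.0482), with 3.18, 11.7 and 34.3 CPM against 0 to 6.53. That call was kept in 7 of 21 alternatives and lost without any one of cortex replicates 1, 2, 3, 5 and 6 and astrocyte replicates 2 and 3.

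By the calls against cortex, the Ai47 aSMC libraries thus held more of 6 ligand genes, of Bmpr2, Tgfbr3, Smad7 and Bmp2k, and less of 3 ligand genes, of 4 type I receptor genes, of 3 Smad genes and of Tgfbrap1 and Bmper. These 22 calls are 55.0% of the members tested, beside 50.6% of all genes. With the Ai47 columns as 1 library 16 of the 22 were lost. No member was called in opposite directions in Ai47 and Ai14 aSMCs against cortex.

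**Figure D5:**
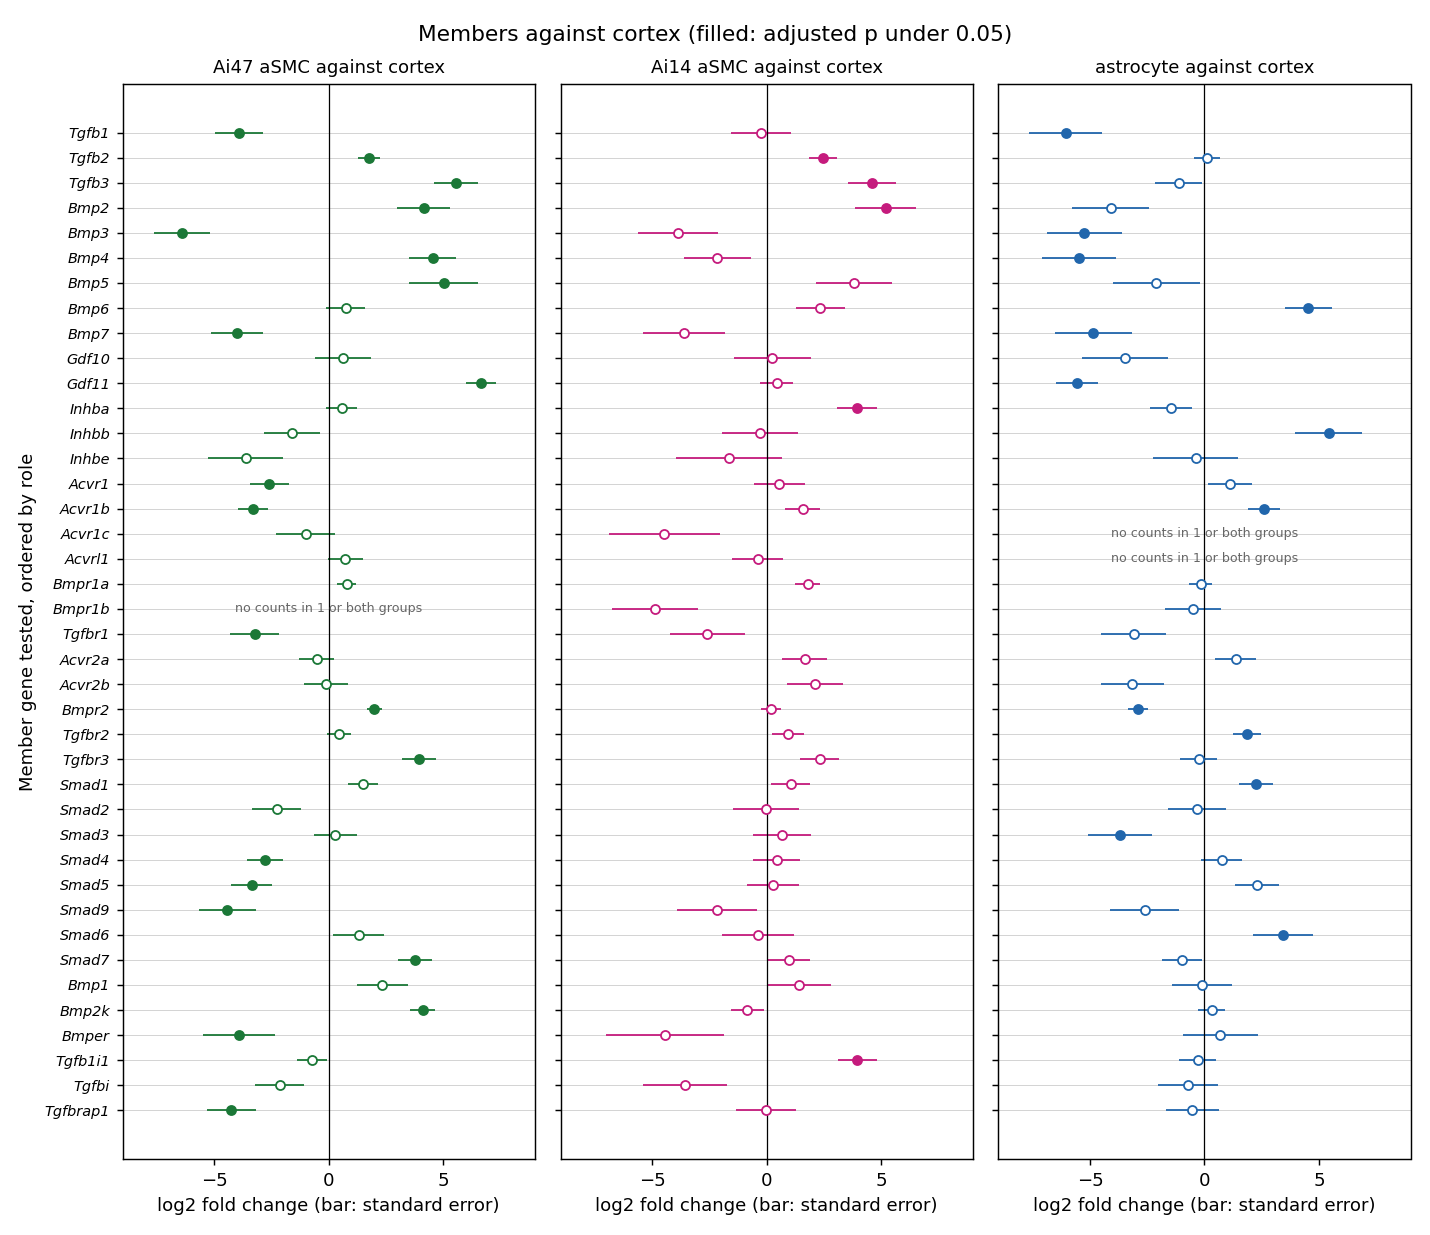
Log2 fold change (points) with its approximate standard error, worked back from the F statistic (bars), of the 40 members tested, in rows by role, for Ai47 aSMCs, Ai14 aSMCs and astrocytes against cortex, where filled points passed an adjusted p under 0.05 and no point is drawn where a group had no counts. Points of genes with few counts in a group, such as Bmp3 in astrocytes, depend on the prior count of the fit. Filled points numbered 21 with Bmpr1b not drawn, 5, and 13 with Acvr1c and Acvrl1 not drawn.

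The 6 other genes act beside the pathway. Bmp2k, a kinase named for its induction by BMP2, lay at 536, 562, 492, 425, 571 and 418 CPM in Ai47 aSMCs, at 16.1 and 16.5 in Ai14 aSMCs, at 19.5, 27.2, 24.1, 47.7, 35.4 and 21.0 in cortex and at 2.81, 54.8 and 50.7 in astrocytes. The Ai47 libraries were above all others, by 4.10 ± 0.540 over cortex (log2, adjusted p = 3.08e-06) and by 4.94 ± 0.926 over Ai14 aSMCs (adjusted p = 0.000643), in every alternative. Exons of Bmp2k share 14.0% of their bases with Paqr3 on the other strand, and whether the counting used strand was not given.

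Tgfb1i1, which encodes the focal adhesion protein Hic-5, went with Ai14 aSMCs, at 206 and 253 CPM against 1.41 to 27.8 in Ai47 aSMCs, 9.83 to 20.2 in cortex and 1.57 to 20 in astrocytes. It was higher in Ai14 aSMCs than in cortex (3.97 ± 0.854, adjusted p = 0.00637) and lower in Ai47 than in Ai14 aSMCs (-4.69 ± 0.863, adjusted p = 0.000536), and DESeq2 gave no adjusted p for either. The first was also lost without either Ai14 library and with cortex replicates 1 to 3 or 4 to 6 alone, and the second with the Ai47 columns as 1 library. Tgfbrap1, a trafficking protein that binds TGF-beta receptors, lay at 0.419, 0.399, 0.649, 2.98, 0.243 and 0.364 CPM in Ai47 aSMCs, at 16.0 in both Ai14 libraries, at 19.0, 22.2, 17.1, 27.5, 6.97 and 4.91 in cortex and at 4.12, 0 and 29.7 in astrocytes. All Ai47 libraries were below those of cortex (-4.26 ± 1.06, adjusted p = 0.00231). Bmper, a BMP-binding protein, was lower in Ai47 aSMCs than in cortex (-3.91, adjusted p = 0.0418), with 9 counts in all there. That call was kept in 9 of 22 alternatives and lost without any one of Ai47 replicates 2 to 6 and cortex replicates 1, 2 and 5. Tgfbi and the protease gene Bmp1 did not pass in the comparisons with cortex.

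Ai47 and Ai14 aSMCs carry the same cell type label, and their direct comparison called 13 of 40 members, 4 higher and 9 lower in Ai47 aSMCs, or 32.5% beside 25.6% of all genes (9.55% higher and 16.0% lower). With library totals the split was 2 higher and 18 lower. With the Ai47 columns as 1 library it was 2 higher and 0 lower, with 4 and 3 at an unadjusted edgeR p under 0.05, and without either Ai14 library it was 2 higher and 3 lower. Higher in Ai47 aSMCs were Gdf11, Bmp4, Bmp2k and Bmpr2, given above. Lower were Tgfb1, Inhba, Acvr1, Acvr1b, Bmpr1b, Smad4, Smad5, Tgfb1i1 and Tgfbrap1. Without either Ai14 library, Acvr1b, Bmpr1b and Tgfb1i1 were the lower calls left. The calls of Tgfb1, Acvr1, Smad4 and Smad5 were also lost without 5 of the 6 Ai47 libraries, left out one at a time. Tgfb3, Tgfb2 and Bmp2, the ligands higher than cortex in both, were not called between them. These 2 groups differ in genotype, in depth and in mitochondrial share, which cannot be told apart.

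Between the 2 groups sorted by tdTomato, Ai14 aSMCs exceeded astrocytes in 11 of 40 members and were below in 0, or 27.5% beside 17.1% of all genes, of which 13.6% were higher and 3.56% lower. The 0 lower members were 2 at an unadjusted edgeR p under 0.05 and 3 called by DESeq2. Higher in Ai14 aSMCs were all 3 TGF-beta ligands, Bmp2, Gdf11, Inhba, Acvrl1, Bmpr1a, Acvr2b, Bmpr2 and Tgfb1i1. Of 14 alternatives, the Bmpr1a call was kept in 2, that of Tgfb2 in 4, of Acvr2b in 7 and of Tgfb1 in 9, and all 4 were lost without Ai14 replicate 7 or 8 or astrocyte replicate 1. The Bmp2 ratio was 579 with an interval of 198 to 2808, from 3 counts in astrocytes. Bmpr2 differed by 3.11 ± 0.491 (adjusted p = 0.000199) and Acvrl1 by at least 57.3-fold (adjusted p = 0.00186). Without astrocyte replicate 1 the calls were 7 higher and 1 lower, and without Ai14 replicate 7 or 8 they were 7 and 6 higher. A fit of these 5 libraries alone called 0 members, with 11 higher and 1 lower at an unadjusted edgeR p under 0.05.

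Genes around the family, on lists chosen for their textbook roles, were also counted. Their calls and p-values are those of the main edgeR fit alone. For the Ai47 group they take its columns as 6 separate libraries, and the outcome with these as 1 library is not given. Beside these counts stand 24.1% of all genes higher and 26.5% lower in Ai47 aSMCs, 3.97% higher in Ai14 aSMCs with 298 genes lower, and 14.6% higher and 19.8% lower in astrocytes. Median log2 fold changes of Ai47 aSMCs against cortex were 1.66, 1.54, -0.89, 0.34 and 2.17 over the 5 lists as they follow here, beside -0.16 over all genes. Of 8 antagonists outside the cell that were tested, 3 were higher and 2 lower in Ai47 aSMCs than in cortex and 4 were higher in Ai14 aSMCs. Fstl1, a follistatin-like protein, lay at 3114 ± 491 CPM in Ai47 aSMCs (SD, n = 6), 149 in Ai14 aSMCs and 12.5 ± 3.25 in cortex (log2 fold changes 7.95 and 3.57, adjusted p = 7.40e-11 and 6.50e-05). Twsg1 was higher than in cortex in both aSMC groups (1.99 and 3.15, adjusted p = 0.00650 and 0.00868). Chrdl1, a BMP antagonist, was lower in Ai47 aSMCs than in cortex (adjusted p = 5.81e-05), with 2 counts over the 6 Ai47 libraries, and cortex was 920-fold higher (exact 95% interval 254 to 7617).

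Of 14 genes for the storage and release of latent TGF-beta, 5 were higher and 4 lower in Ai47 aSMCs than in cortex, 3 higher and 1 lower in Ai14 aSMCs, and 1 higher and 4 lower in astrocytes. Ltbp1, which ties latent TGF-beta to the matrix, lay at 11497 ± 1764 CPM in Ai47 aSMCs (SD, n = 6), 393 in Ai14 aSMCs and 11.4 ± 3.44 in cortex (9.98 and 5.11, adjusted p = 3.25e-11 and 4.55e-06). The integrin genes split: Itgav was higher in Ai47 aSMCs than in cortex (2.5, adjusted p = 0.000379), and Itgb8, the partner by which astrocytes activate TGF-beta, was lower in Ai47 aSMCs (-9.0, adjusted p = 2.85e-09) and in Ai14 aSMCs (-3.56, adjusted p = 0.0170).

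Among 8 relatives and co-receptors without the prefix, 1 was higher and 3 lower in Ai47 aSMCs than in cortex and 2 were higher in Ai14 aSMCs. Rgma, a BMP co-receptor, was lower in Ai47 aSMCs (-5.88, adjusted p = 9.49e-06), as was Neo1, the receptor of that protein (-2.33, adjusted p = 0.0180). Gfra1, a receptor subunit for GDNF, had no counts in Ai47 aSMCs and 19.1 CPM in cortex, at least 898-fold higher (adjusted p = 1.81e-05). Eng, an endothelial co-receptor, was at 25.1 CPM in Ai47 aSMCs and 14.6 in cortex and did not pass (0.78, adjusted p = 0.310).

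Of 16 regulators inside the cell, 6 were higher and 4 lower in Ai47 aSMCs than in cortex and 0 in either direction in Ai14 aSMCs. Skil, which encodes the Smad repressor SnoN, lay at 7041 ± 1111 CPM in Ai47 aSMCs (SD, n = 6), 43.3 in Ai14 aSMCs and 36.7 ± 5.40 in cortex, a log2 fold change of 7.58 (adjusted p = 1.4e-12) in Ai47 aSMCs and of 0.24 (adjusted p = 0.798) in Ai14 aSMCs. Trim33 and Tgif1, other brakes on Smads, were higher in Ai47 aSMCs by 3.22 and 5.43 (adjusted p = 5.72e-07 and 6.37e-05) and did not pass in Ai14 aSMCs.

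Of 23 textbook transcriptional targets, 12 were higher and 2 lower in Ai47 aSMCs than in cortex, 9 higher and 0 lower in Ai14 aSMCs, and 3 higher and 5 lower in astrocytes. The list holds genes that mark smooth muscle whatever their induction. Acta2, smooth muscle actin, lay at 3266 ± 801 CPM in Ai47 aSMCs (SD, n = 6), 2624 in Ai14 aSMCs and 30.5 in cortex (6.74 and 6.43, adjusted p = 1.44e-09 and 4.92e-07). Col1a1, a collagen gene, lay at 1739 ± 347 CPM in Ai47 aSMCs (SD, n = 6), 2.0 in Ai14 aSMCs and 1.31 in cortex, and Junb, an immediate early gene, at 371 ± 149 (SD, n = 6), 49.1 and 1.79.

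Over the 4 group means, the genes most like the 3 leading members of Ai47 aSMCs per kb were found among 9375 genes by the distance of centred log2(CPM + 0.5) values. Nearest to Gdf11 were Fnbp4 (0.753), Ero1lb (0.844) and Scn2b (1.06), each far higher in Ai47 aSMCs than elsewhere. Nearest to Tgfb3 were Frk (0.176), Rasd1 (0.383) and Kcnab1 (0.402), high in both aSMC groups. Nearest to Bmpr2 were Nsd1 (0.124), Zfp862-ps (0.253) and Ppil2 (0.260). With 4 means a gene has few ways to differ, so these are a description.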

How the data were processed

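The authors deposited 1 table of raw whole-number counts per gene symbol for 17 libraries and 21640 genes, with no normalization. All columns were mapped to a sample by their names. The labels list Trim Galore 0.6.7, FastQC 0.11.9, MultiQC 1.13, Salmon 1.4.0 and GRCm38, whereas the study's methods describe TopHat and htseq-count. Which of these made the table, the annotation release and the strand setting were not stated. A read shared between similar or overlapping genes may therefore have been counted in either. The cortex samples are labelled as a WT homogenate, whereas the methods speak of a fraction of the same dissociated cortices.

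The counts were fitted with edgeR 4.0.16 in R 4.3.3 (glmQLFit and glmQLFTest, 1 coefficient per group over the 17 libraries, filterByExpr with a minimum count of 10, TMM, Benjamini-Hochberg adjustment over the 14927 genes kept, threshold 0.05). In all, 5 contrasts were tested, and p-values are two-sided. Lengths per kb are the union of exons in GENCODE M21, to which 97.4% of symbols matched. A fold against a group with no counts was set against 3 counts over the group, and groups of 1 to 3 counts got an exact Clopper-Pearson 95% interval. Libraries of 4537137 to 53643624 counts set these limits, which cover counting error only. The fitting code was tested on simulated data.

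Values in every sample were given for the highest member per kb in any group and the member most changed between Ai47 aSMCs and cortex in each role. Of each list, the 2 highest per kb and the 2 most changed genes were named. Other members and list genes were named by their calls. Members and lists were chosen with earlier results of these data known. Alternatives were DESeq2 1.42.0, other scalings and filters, a robust fit, only the groups compared, the Ai47 columns as 1 library, a replicate block and each replicate left out. Libraries with the same replicate number did not deviate together (correlations -0.0521 to 0.0301), so the numbers were not taken to pair them.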

Additional observations from a re-analysis of the deposited data

Results flagged for a closer look

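The values of 13 members in each group of 6 libraries, 25 sets in all, were examined for a single library far from the other 5. In 5 sets 1 library stood apart, and these fell in 3 libraries. Chance gives about 1 in 20 only where values are normally distributed, which was not checked for CPM. The 5 sets are therefore a description and no excess over chance. In cortex, replicate 6 held 27.0 CPM of Tgfb3 against 1.87 to 6.72 in the other 5. Cortex replicate 4 held 24.5 CPM of Inhba against 3.31 to 10.3, and 18.4 CPM of Smad7 against 3.10 to 5.36. In Ai47 aSMCs, replicate 4 held 23.8 CPM of Smad5 against 0.406 to 0.969 in the other 5, and 2.98 CPM of Tgfbrap1 against 0.243 to 0.649.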

How the results depend on the processing

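The alternatives were counted for 27 calls of 13 members, those chosen in each role for their level or their change. Calls of the other members are not in this count, which does not speak for them. Of 529 values, 476 kept their direction and stayed past the threshold, 52 kept their direction and missed it, and 1 turned: with library totals in place of TMM, Bmpr2 between Ai47 and Ai14 aSMCs went to -0.44. The cause was not tested for this or for any count below. Library totals moved the median of all genes by -1.34, 0.86, 0.88, -2.18 and -0.04 on the log2 scale in the comparisons of Ai47 aSMCs, Ai14 aSMCs and astrocytes with cortex, of Ai47 with Ai14 aSMCs and of Ai14 aSMCs with astrocytes. DESeq2's size factors moved it by -0.13, -0.48, -0.05, 0.35 and -0.39, and leaving out mitochondrial genes by 0.26, -0.19, -0.05, 0.44 and -0.14. For Ai47 aSMCs against cortex, library totals gave 6 higher members, the Ai47 columns as 1 library 5 higher and 1 lower, and cortex replicates 1 to 3 alone 7 lower. For Ai14 aSMCs against cortex, 3 were higher with the Ai47 columns as 1 library, 1 with cortex replicates 4 to 6 alone and 2 with replicates 1 to 3 alone, and 4 were lower with DESeq2 and 2 with only the 2 groups. For astrocytes, 3 were higher with cortex replicates 4 to 6 and 1 with replicates 1 to 3. Both subsets of cortex were chosen after the data were seen. Between Ai47 and Ai14 aSMCs, library totals gave 2 higher and 18 lower, and the Ai47 columns as 1 library 2 and 0. Between Ai14 aSMCs and astrocytes, 0 were higher with only the 2 groups and 3 lower with DESeq2. Leaving out 1 replicate at a time gave, in the same order of comparisons, 10 to 12 higher and 11 to 12 lower, 0 to 5 and 0 to 0, 3 to 5 and 6 to 12, 2 to 4 and 3 to 8, and 6 to 14 and 0 to 2. With 1 Ai14 library left, its spread is taken from the other groups.

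The replicate block, over Ai47 aSMC, cortex and astrocyte libraries that share only a number, gave 9 higher and 10 lower members for Ai47 aSMCs and 1 higher and 4 lower for astrocytes. It ended the Ai47 calls of Bmp5, Bmper and Smad9. The astrocyte calls it ended were those of Acvr1b, Acvr1c, Bmp3, Bmp4, Inhbb, Smad1, Smad3, Smad6 and Tgfbr2. Over all genes it called 3116 higher and 3121 lower for Ai47 aSMCs, beside 3601 and 3951 without it, and 736 and 1984 for astrocytes, beside 2183 and 2962. No paired analysis was possible because the Ai14 libraries carry numbers of their own, for the comparisons that include them. Depth limits most the astrocyte values near 0, where 3 counts over the group are 0.0782 CPM.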
